A study of Homo sapiens with 12 samples.

Results

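Interferon-stimulated genes are the genes that cells switch on in answer to interferons, and 46 of them were followed in 2 human melanoma cell lines that had become resistant to palbociclib, an inhibitor of the cell cycle kinases CDK4 and CDK6. The 46 were taken by gene name, and all were present in both count tables, which together list 36675 genes. The rule uses gene names alone, with no measured value, but the names were chosen with earlier results of these data known. RNA was sequenced from 4 groups of 3 libraries each. Resistant A375 cells (A375AR991) had been exposed to rising palbociclib over 7 months, were then kept in 4 µM, and were compared with untreated parental A375 cells. Resistant CHL1 cells (CHL1AR991) had been exposed over 3 months, were kept in 4 µM, and were compared with untreated parental CHL1 cells. All groups grew in RPMI medium and were held without the drug for 72 h before RNA extraction. Each resistant derivative is a single line, so resistance and any other difference between that derivative and its parent cannot be told apart, and the months of exposure differ with the cell line. The labels do not say that the 3 libraries of a group came from separate cultures, so every p-value rests on the variation among these libraries, which could be technical alone. In bulk RNA, a lower level in every cell and fewer cells with the RNA cannot be told apart.

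Type I interferons bind the receptor pair IFNAR1 and IFNAR2, and the kinases JAK1 and TYK2 then pass the signal to factors that include STAT2. STAT2 joins IRF9 in a complex that binds the interferon-stimulated response element, a short DNA motif in the promoters of its target genes. Interferon gamma acts mainly through another motif, the gamma-activated site. The products act against viruses: they sense foreign RNA, degrade or edit RNA, block translation, or attach the ubiquitin-like protein ISG15 to other proteins. Many tumour cell lines express part of this set without added interferon.

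Promoter windows of the members were searched for a fixed spelling of the response element, and 8 are printed below. These were picked among members called lower in resistant cells because their windows hold a match. OAS1, HERC6 and IFI35, which were lower in both lines and had no match, are not printed. RefSeq windows on GRCh38.p14, from 250 bases before to 50 bases after a transcription start, were found for 38 of the 46 members. The response element was searched as GAAANNGAAA on the strand shown and as TTTCNNTTTC on the other strand. Other spacings were not searched, so a window without a match may still carry the element. At least 1 match was present for 25 of the 38 members (65.8%), against 4.38% of 27305 genes with a window. The gamma-activated site, searched as TTCNNNGAA, which reads the same on both strands, was present for 10 members (26.3%) and for 9.38% of all genes. The motifs do not share their letters, but matches to them may overlap in a window. USP18, OAS2, OASL, IFIT2, IRF7, DHX58, GBP2 and MX2 had no window in the table. The sequences run 5′ to 3′ on the strand of the gene, with matches to the response element in capitals. OAS3, DTX3L, PARP14, PARP12 and SAMD9 are the members with a match that were lower in resistant cells of both lines, while ISG15, HERC5 and IFIT5 were lower in resistant A375 only among the calls and differed between lines in the direct test given further on.
OAS3 promoter (GRCh38.p14, chr12:112938224-112938523, plus strand): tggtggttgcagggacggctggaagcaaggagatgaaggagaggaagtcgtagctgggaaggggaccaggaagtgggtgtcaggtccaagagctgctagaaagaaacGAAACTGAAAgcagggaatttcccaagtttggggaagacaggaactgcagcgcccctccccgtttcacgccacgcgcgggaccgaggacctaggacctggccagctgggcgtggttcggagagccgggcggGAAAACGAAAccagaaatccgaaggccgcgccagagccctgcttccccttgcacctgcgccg
DTX3L promoter (GRCh38.p14, chr3:122564088-122564387, plus strand): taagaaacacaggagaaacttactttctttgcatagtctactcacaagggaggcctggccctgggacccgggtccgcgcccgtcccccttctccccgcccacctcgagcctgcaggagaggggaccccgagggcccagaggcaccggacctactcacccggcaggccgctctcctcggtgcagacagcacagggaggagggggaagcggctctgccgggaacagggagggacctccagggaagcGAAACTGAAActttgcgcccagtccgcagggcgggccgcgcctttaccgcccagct
PARP14 promoter (GRCh38.p14, chr3:122680589-122680888, plus strand): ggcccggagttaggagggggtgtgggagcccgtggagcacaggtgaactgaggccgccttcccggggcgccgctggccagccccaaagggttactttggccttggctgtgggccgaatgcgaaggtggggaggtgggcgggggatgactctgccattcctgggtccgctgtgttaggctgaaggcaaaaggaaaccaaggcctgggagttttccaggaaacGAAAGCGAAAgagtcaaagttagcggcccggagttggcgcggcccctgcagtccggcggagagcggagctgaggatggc
PARP12 promoter (GRCh38.p14, chr7:140062902-140063201, minus strand): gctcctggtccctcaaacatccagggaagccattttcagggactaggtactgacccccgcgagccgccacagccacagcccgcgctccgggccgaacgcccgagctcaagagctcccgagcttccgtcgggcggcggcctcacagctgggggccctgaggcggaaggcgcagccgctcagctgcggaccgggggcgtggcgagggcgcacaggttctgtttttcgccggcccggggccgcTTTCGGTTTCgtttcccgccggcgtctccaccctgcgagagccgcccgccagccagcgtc
SAMD9 promoter (GRCh38.p14, chr7:93117930-93118229, minus strand): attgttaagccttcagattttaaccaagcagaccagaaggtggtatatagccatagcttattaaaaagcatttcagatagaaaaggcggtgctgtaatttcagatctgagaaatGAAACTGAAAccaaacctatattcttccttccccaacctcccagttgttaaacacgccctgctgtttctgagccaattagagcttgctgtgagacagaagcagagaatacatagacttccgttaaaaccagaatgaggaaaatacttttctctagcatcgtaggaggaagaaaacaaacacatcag
ISG15 promoter (GRCh38.p14, chr1:1013247-1013546, plus strand): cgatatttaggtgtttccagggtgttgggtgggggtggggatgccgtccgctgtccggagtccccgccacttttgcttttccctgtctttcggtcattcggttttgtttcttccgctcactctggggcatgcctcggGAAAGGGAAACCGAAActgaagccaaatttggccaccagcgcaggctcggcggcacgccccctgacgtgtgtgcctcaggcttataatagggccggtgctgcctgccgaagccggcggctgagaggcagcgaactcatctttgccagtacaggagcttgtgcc
HERC5 promoter (GRCh38.p14, chr4:88456869-88457168, plus strand): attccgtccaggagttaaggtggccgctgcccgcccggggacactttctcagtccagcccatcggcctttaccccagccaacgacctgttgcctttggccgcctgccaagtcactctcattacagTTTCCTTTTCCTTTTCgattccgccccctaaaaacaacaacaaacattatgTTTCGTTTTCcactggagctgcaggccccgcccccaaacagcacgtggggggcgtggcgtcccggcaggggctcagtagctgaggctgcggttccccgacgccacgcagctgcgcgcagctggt
IFIT5 promoter (GRCh38.p14, chr10:89414318-89414617, plus strand): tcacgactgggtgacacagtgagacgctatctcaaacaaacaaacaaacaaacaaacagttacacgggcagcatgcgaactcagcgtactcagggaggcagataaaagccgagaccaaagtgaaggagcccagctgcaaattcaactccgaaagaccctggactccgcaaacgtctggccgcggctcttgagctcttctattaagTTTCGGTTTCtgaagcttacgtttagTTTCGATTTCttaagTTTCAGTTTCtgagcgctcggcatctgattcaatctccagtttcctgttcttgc
Neighbouring matches share bases in the ISG15 and HERC5 windows, so that 2 matches read as 1 run in ISG15. The matches lie at different distances from the start, from 143 bases before it in OAS3 to 4 bases before it in IFIT5. DTX3L and PARP9 are transcribed away from each other, and their windows overlap, so that the match printed for DTX3L is also the one in the PARP9 window.

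Matches were also counted by the members' calls, with no test of the difference. In A375, 13 of 17 lower members with a window held a match to the response element, against 9 of 17 members that were not called. In CHL1, 7 of 11 lower members held a match, against 15 of 22 that were not called. Among the 8 members lower in both lines, OAS1, HERC6 and IFI35 had no match in these windows, which says only that these letters are not in them.

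Levels are given as normalised CPM, a gene's reads scaled to the size of its library, with TMM factors over all 12 libraries for composition. They compare 1 gene between libraries and not 1 gene with another, since they are not divided by gene length. Total counts ran from 25398920 to 29812686 per library, and 3 counts in a library correspond to 0.101 to 0.118 CPM, a floor that covers counting error only. A gene was called higher or lower at an adjusted p below 0.05 in edgeR's quasi-likelihood F-test with Benjamini-Hochberg adjustment over all genes tested. Fold changes are on the log2 scale, resistant over parental, with their standard errors (SE). Melanocyte markers were summed to describe the libraries, which cannot decide whether a label is right. The sums were 356 to 588 CPM in resistant and 600 to 900 CPM in parental A375, and 1790 to 2048 CPM in resistant and 1782 to 2099 CPM in parental CHL1. Single markers did not all follow the sums: in resistant A375, MITF was called lower and TYRP1 higher. Each table lists only genes with at least 1 count in its 6 libraries, and a gene that a table does not list adds nothing to a summed level. TYR, which encodes the pigment enzyme tyrosinase, was not listed for A375 and averaged 0.514 CPM in resistant and 0.528 CPM in parental CHL1.

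The 46 members were mostly lower in the resistant cells where they changed, in both lines. Their names were chosen with earlier results of these data known, so the shares below hold for these names alone. In a further list of 26 interferon-induced genes, given further on, 5 of 23 tested were lower and 3 higher in A375. In CHL1, 7 of 22 of them were lower and 4 higher. In A375, 44 members could be tested: 21 were lower (47.7%), against 14.8% of all 18086 genes tested, and 2 were higher (4.55%), against 13.4%. The other 21 were not called, and RSAD2 and IFI27 were too low to test. The median log2 fold change was -0.34 over the tested members and -0.00 over all genes, and 31 of the members (70.5%) were below zero, against 50.1% of all genes. In CHL1, 42 members could be tested: 14 were lower (33.3%), against 11.5% of all 17219 genes tested, and 2 were higher (4.76%), against 9.5%. The other 26 were not called, and OAS2, IFI44L, BST2 and XAF1 were too low to test. Their median was -0.11, against 0.01 over all genes, and 29 members (69%) were below zero, against 48.4%. The changes ran from -1.37 for HERC5 to 1.63 for IFI44L in A375, and from -1.59 for OAS1 to 0.59 for ISG20 in CHL1. Leaving out resistant CHL1 replicate 3 or parental CHL1 replicate 1 brought the lower members of CHL1 to 9 and 8, while the count in A375 stayed between 17 and 20 when any 1 library was left out.

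**Figure D1:**
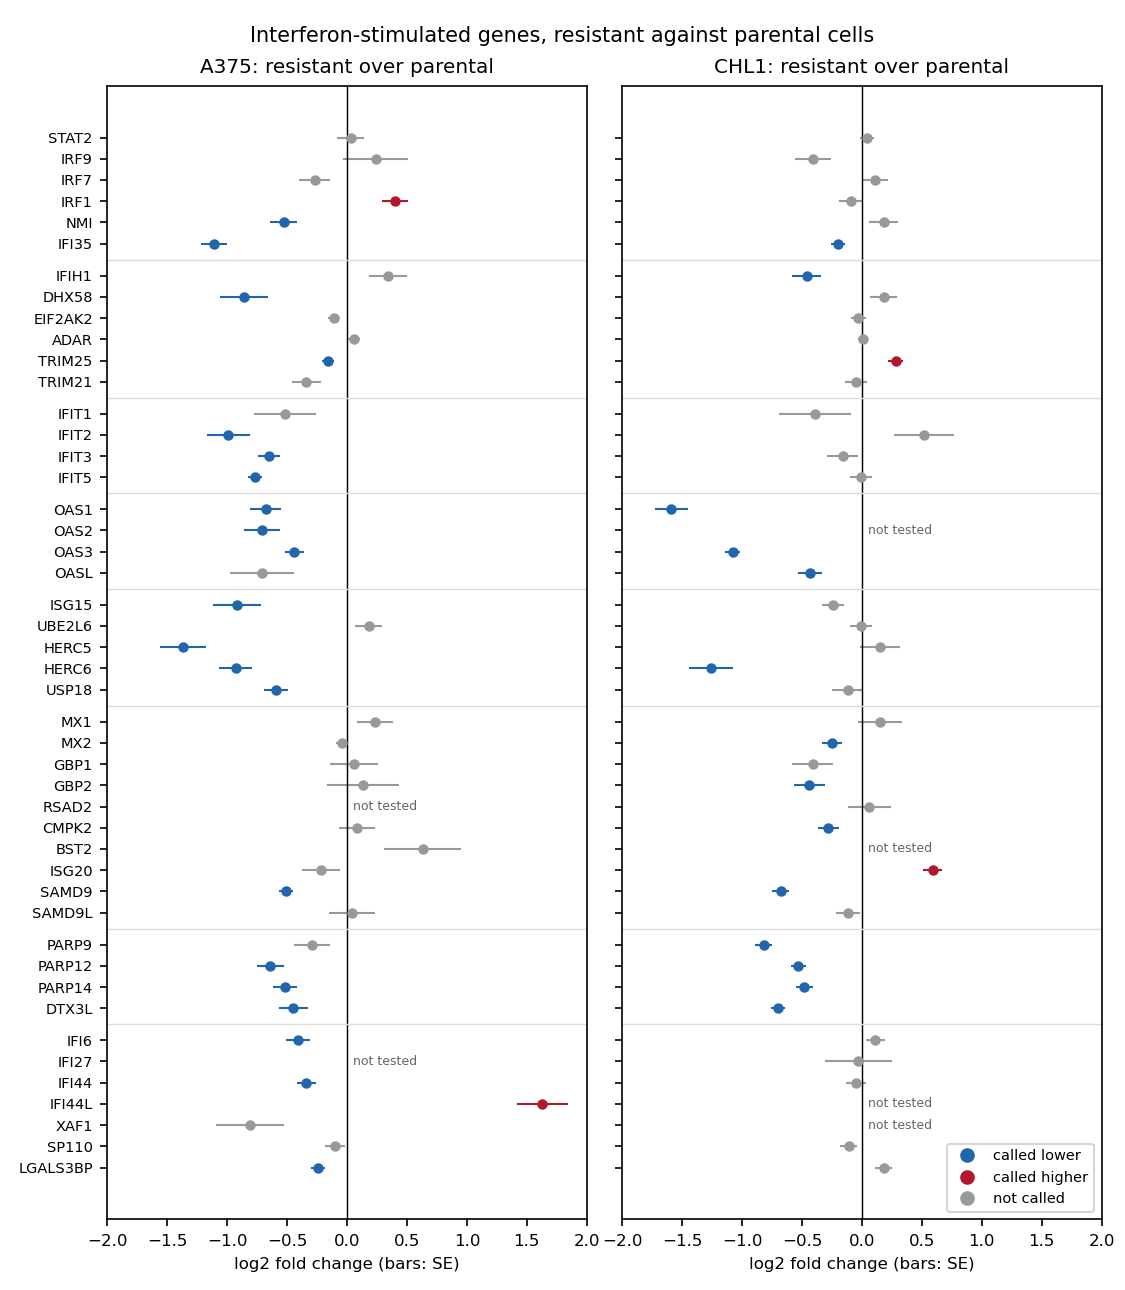
Log2 fold changes of the 46 interferon-stimulated genes, resistant over parental, in A375 (left) and CHL1 (right), grouped from top to bottom by role; points are edgeR estimates, bars are standard errors, and blue, red and grey mark genes called lower, called higher and not called. Most blue points of A375 lie between -0.3 and -1.4, and the lowest points of CHL1 are OAS1, HERC6 and OAS3.

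Of the members called lower, 8 were lower in both lines: OAS1, OAS3, HERC6, SAMD9, PARP12, PARP14, DTX3L and IFI35. They are 38.1% of the lower members of A375 and 57.1% of those of CHL1. Over all genes, 364 were lower in both lines, which is 13.6% of the lower genes of A375 and 18.3% of those of CHL1. A further 11 were lower in A375 and tested but not called in CHL1, namely DHX58, HERC5, IFI44, IFI6, IFIT2, IFIT3, IFIT5, ISG15, LGALS3BP, NMI and USP18. Lower in CHL1 and not called in A375 were CMPK2, GBP2, IFIH1, MX2, OASL and PARP9. TRIM25 was lower in A375 and higher in CHL1. Whether a member's change differed between the lines is tested directly at the end of each role.

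STAT2, IRF9 and IRF7, the members that carry the signal to the genes, were not called in either line. STAT2, a transcription factor of the type I response, had 34.5, 30.9 and 35 CPM in resistant A375, against 38.4, 27.9 and 32.5 CPM in parental A375, and the groups overlapped. Its log2 fold change was 0.03 (SE 0.11) in A375 and 0.04 (SE 0.06) in CHL1, with adjusted p of 0.893 and 0.704 in edgeR. IRF9, the DNA-binding partner of STAT2, had 1.15 to 1.82 CPM in resistant and 0.842 to 1.48 CPM in parental A375. In CHL1 it had 1.74, 1.77 and 1.81 CPM in resistant cells, against 2.65, 2.22 and 2.23 CPM in parental cells, groups that did not overlap, yet the change of -0.41 (SE 0.15) was not called (adjusted p = 0.0702, edgeR). IRF7, which amplifies interferon production, was not called in either line, at -0.27 (SE 0.13) in A375 and 0.11 (SE 0.11) in CHL1.

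IRF1, a transcription factor best known from the response to interferon gamma, went the other way in A375. It had 21, 23 and 26.2 CPM in resistant A375, against 16.5, 17.1 and 19.4 CPM in parental A375, and every resistant library was above every parental one. The log2 fold change was 0.40 (SE 0.11, adjusted p = 0.0198, edgeR), but the call was lost without resistant replicate 3 (0.0745), parental replicate 1 (0.061) or parental replicate 2 (0.0512). In CHL1 IRF1 had 11, 9.55 and 10.4 CPM in resistant cells and 12.1, 11 and 9.89 CPM in parental cells, and was not called (-0.09, SE 0.10). The change in A375 exceeded that in CHL1 by 0.49 (SE 0.15, adjusted p = 0.0251), a call lost when any of 5 libraries was left out.

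IFI35 and NMI encode partner proteins that bind each other and act on innate immune signalling. IFI35 had 10.4, 11 and 13.2 CPM in resistant A375, against 26.4, 25.1 and 23.5 CPM in parental A375, a log2 fold change of -1.11 (SE 0.11, adjusted p = 0.000122, edgeR). Every resistant library was far below every parental one. The CHL1 libraries held 72.1, 81.1 and 73.7 CPM in resistant cells and 89.5, 82.8 and 89.3 CPM in parental cells, so the groups lay close to each other without overlap. That change was -0.20 (SE 0.06, adjusted p = 0.0226), and 4 of 6 libraries, when left out, ended the call (adjusted p up to 0.0927). NMI was lower in A375 (-0.53, SE 0.11) and not called in CHL1 (0.18, SE 0.12). Both genes changed more in A375 by the test of the difference, which gave -0.91 (SE 0.12, adjusted p = 5.63e-05) for IFI35 and -0.71 (SE 0.17, adjusted p = 0.00651) for NMI.

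RNA sensors and their regulators moved in different directions. DHX58, the sensor LGP2, had 2.02, 1.66 and 2.62 CPM in resistant A375 and 4.1, 3.11 and 4.17 CPM in parental A375 (-0.86, SE 0.20, adjusted p = 0.0129, edgeR). It was not called in CHL1 (0.18, SE 0.11), and the lines differed by -1.04 (SE 0.23, adjusted p = 0.00408). IFIH1, the sensor MDA5, showed the other pattern, with 5.15, 4.52 and 5.51 CPM in resistant CHL1 and 7.37, 5.93 and 7.66 CPM in parental CHL1 (-0.46, SE 0.12, adjusted p = 0.0199). In A375 it was not called (0.34, SE 0.16), the difference was 0.80 (SE 0.21, adjusted p = 0.0109), and 3 of 6 libraries, when left out, ended the call in CHL1 (adjusted p up to 0.0789).

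TRIM25, the ubiquitin ligase of the sensor RIG-I, was the one member called in opposite directions. It had 157, 166 and 159 CPM in resistant A375, against 174, 179 and 186 CPM in parental A375 (-0.16, SE 0.05, adjusted p = 0.0458, edgeR). In CHL1 it had 68.9, 72.4 and 69.8 CPM in resistant cells, against 54.9, 55.6 and 63.3 CPM in parental cells (0.28, SE 0.06, adjusted p = 0.00564). The A375 call was lost in 7 of 11 alternatives, DESeq2 among them (0.067), and the difference of -0.44 (SE 0.08, adjusted p = 0.000987) was kept in all 18 alternatives run for it. EIF2AK2, the kinase PKR that halts translation, and ADAR, which edits double-stranded RNA, were not called in either line: ADAR averaged 414 ± 11.6 CPM in resistant and 397 ± 14.8 CPM in parental A375, and 355 ± 7.23 CPM in resistant and 352 ± 5.66 CPM in parental CHL1 (SD, n = 3 each). TRIM21, an intracellular antibody receptor, was not called in either line.

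The IFIT proteins bind foreign RNA and block its translation. In A375, 3 of the 4 were lower. IFIT2 had 1.99, 1.85 and 2.04 CPM in resistant A375, against 3.83, 3.19 and 4.69 CPM in parental A375 (-0.99, SE 0.18, adjusted p = 0.00325, edgeR). IFIT3 had 9.71, 9.37 and 9.32 CPM in resistant A375, against 14.6, 14.4 and 15.7 CPM in parental A375 (-0.65, SE 0.09, adjusted p = 0.00074). IFIT5 had 24, 25.1 and 24.6 CPM in resistant A375, against 40.4, 42.1 and 43.6 CPM in parental A375 (-0.77, SE 0.06, adjusted p = 5.44e-05). In these 3 genes every resistant library was below every parental one. IFIT1, the founding member, had 3.44, 2.04 and 2.98 CPM in resistant A375 and 5.43, 2.93 and 3.77 CPM in parental A375, which overlapped (-0.52, SE 0.26, adjusted p = 0.178).

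In CHL1 none of the 4 IFIT genes was called by edgeR or by DESeq2, and 0 had an unadjusted p below 0.05. IFIT1 had 0.365, 0.434 and 0.725 CPM in resistant CHL1 and 0.679, 0.556 and 0.798 CPM in parental CHL1, and IFIT2 had 1.5, 1.09 and 0.943 CPM in resistant CHL1 and 0.644, 0.964 and 0.838 CPM in parental CHL1. IFIT5 had 14.3, 11.8 and 12.6 CPM in resistant CHL1 and 13.3, 12.1 and 13.5 CPM in parental CHL1, with overlapping groups (-0.01, SE 0.09). The test of the difference between lines was called for IFIT2 (-1.51, SE 0.31, adjusted p = 0.00231), IFIT5 (-0.76, SE 0.11, adjusted p = 0.000136) and IFIT3 (-0.49, SE 0.15, adjusted p = 0.032). For IFIT3 it was lost in 9 of 18 alternatives.

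The 4 IFIT genes lie side by side on chromosome 10, and their neighbours moved with them in A375. Of the 20 nearest tested protein-coding genes that are not members, 14 were lower and 2 higher in resistant A375, and their median log2 fold change was -0.51. LIPA, which encodes a lysosomal lipase and lies next to IFIT2, was lower (-0.91, SE 0.08), while FAS, a death receptor on its far side, was higher (0.43, SE 0.12). Relative to that median, IFIT2 was at -0.48, IFIT5 at -0.26 and IFIT3 at -0.14. The IFIT changes in A375 therefore cannot be told apart from a change of the stretch they lie in.

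The OAS enzymes make 2′-5′ oligoadenylates that switch on the nuclease RNase L. Every OAS gene that could be tested was lower in CHL1, and 3 of the 4 were lower in A375. OAS1 had 6.64, 7.68 and 6.42 CPM in resistant A375, against 10.9, 12.5 and 9.81 CPM in parental A375 (-0.68, SE 0.13, adjusted p = 0.00429, edgeR). The corresponding CHL1 values were 1.3, 1.56 and 1.7 CPM in resistant cells, against 4.83, 4.45 and 4.55 CPM in parental cells (-1.59, SE 0.14, adjusted p = 1.42e-05). In both lines the groups stood well apart. OAS3, the longest enzyme of the family, had 77.3, 68.3 and 71.6 CPM in resistant A375 and 97.6, 88.2 and 109 CPM in parental A375 (-0.44, SE 0.08, adjusted p = 0.00452). It had 21.5, 22.5 and 22.6 CPM in resistant CHL1, against 47.1, 48.7 and 45.2 CPM in parental CHL1 (-1.08, SE 0.06, adjusted p = 4.13e-07). The fall was deeper in CHL1 for both genes: the change in A375 minus that in CHL1 was 0.92 (SE 0.19, adjusted p = 0.00279) for OAS1 and 0.64 (SE 0.11, adjusted p = 0.000506) for OAS3.

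OAS2 was close to absent from CHL1. It had 4.75, 3.95 and 4.8 CPM in resistant A375, against 8.73, 6.37 and 7.03 CPM in parental A375 (-0.71, SE 0.15, adjusted p = 0.00809, edgeR). In CHL1 it had 4 counts over the 3 resistant libraries and 9 counts over the 3 parental libraries, too few for a test. OASL, an OAS-like protein without the enzyme activity, had 5.55, 5.24 and 5.08 CPM in resistant CHL1 and 7.83, 6.89 and 6.58 CPM in parental CHL1 (-0.43, SE 0.10, adjusted p = 0.0129), a call lost without resistant replicate 3 (0.0542) or parental replicate 1 (0.058). In A375 OASL stayed below the call (-0.71, SE 0.27, adjusted p = 0.0805). OAS1, OAS3 and OAS2 are neighbours on chromosome 12, where the median of the 20 nearest other genes was -0.02 in A375 and -0.07 in CHL1.

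**Figure D2:**
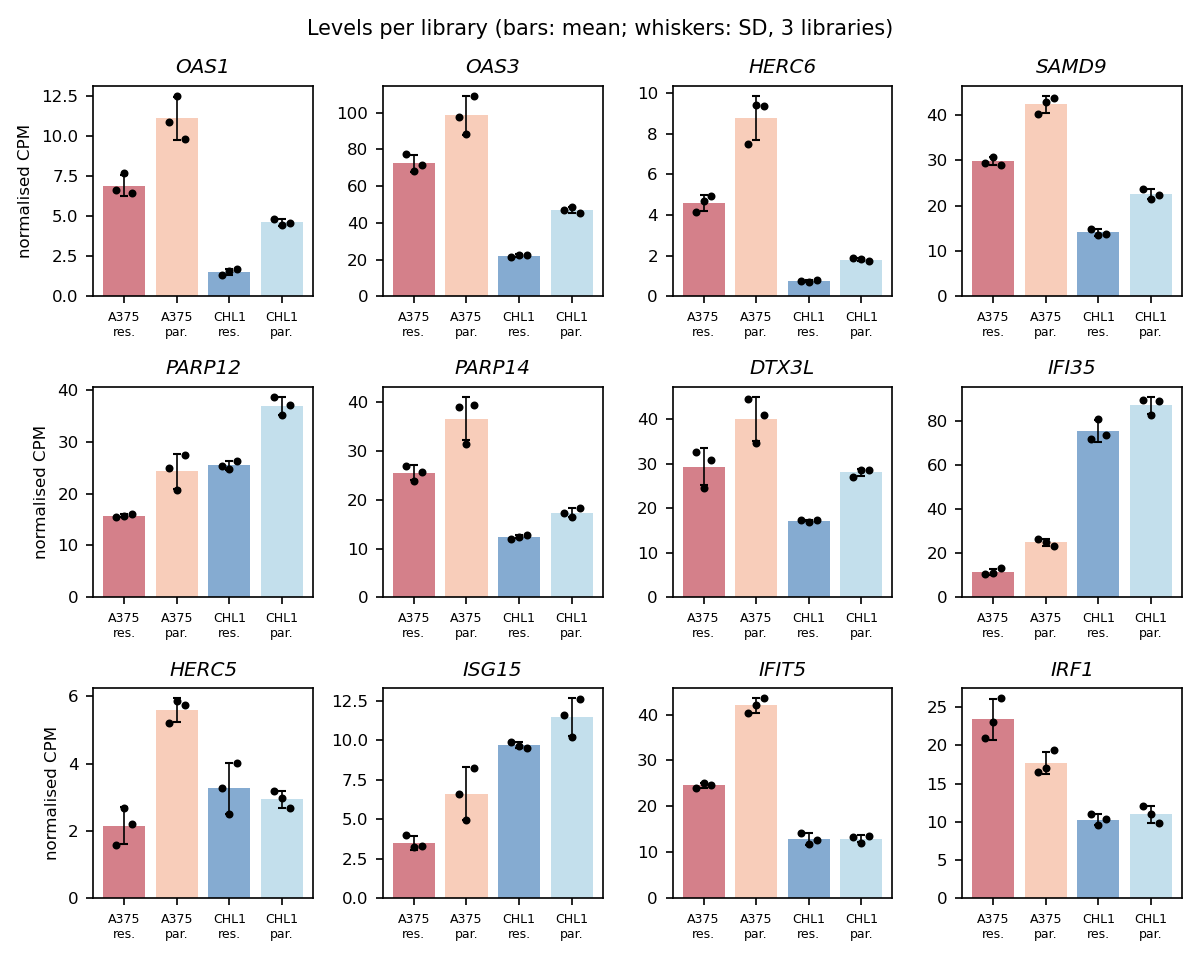
Normalised CPM in each library for 12 interferon-stimulated genes: the 8 that were lower in both lines (top 2 rows) and HERC5, ISG15, IFIT5 and IRF1 (bottom row), with resistant and then parental groups of A375 (red) and of CHL1 (blue); bars are means, whiskers are SD and points are the 3 libraries. OAS1 in resistant CHL1 lies at 1.3 to 1.7 CPM, below all 3 parental libraries at 4.45 to 4.83 CPM.

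ISG15 is a ubiquitin-like protein; UBE2L6 is its conjugating enzyme, HERC5 its main human ligase, HERC6 a close relative of that ligase, and USP18 the protease that removes it. In A375, 4 of these 5 genes were lower, and UBE2L6 was not called (0.18, SE 0.11). ISG15 had 4.01, 3.22 and 3.3 CPM in resistant A375, against 6.64, 4.96 and 8.27 CPM in parental A375 (-0.92, SE 0.20, adjusted p = 0.0081, edgeR). HERC5 had 1.58, 2.68 and 2.22 CPM in resistant A375, against 5.2, 5.85 and 5.75 CPM in parental A375 (-1.37, SE 0.19, adjusted p = 0.000866), the lowest change among the 44 tested members of that line. USP18, which also restrains the interferon receptor, had 6.13, 6.6 and 6.06 CPM in resistant A375, against 9.83, 8.97 and 9.63 CPM in parental A375 (-0.59, SE 0.10, adjusted p = 0.0029). A near-identical copy of USP18 exists in the human genome, so reads of that gene may be split.

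In CHL1 only HERC6 of this group was called. It had 0.73, 0.723 and 0.798 CPM in resistant CHL1, against 1.86, 1.82 and 1.75 CPM in parental CHL1 (-1.26, SE 0.18, adjusted p = 0.000436, edgeR). In A375 it had 4.15, 4.69 and 4.95 CPM in resistant cells, against 7.51, 9.41 and 9.37 CPM in parental cells (-0.93, SE 0.14, adjusted p = 0.00117). The test of the difference did not call HERC6 (0.33, SE 0.22). ISG15 had 9.93, 9.62 and 9.53 CPM in resistant CHL1 and 11.6, 10.2 and 12.6 CPM in parental CHL1, and its change was not called (-0.24, SE 0.09, adjusted p = 0.0872). HERC5 had 3.28, 2.5 and 4.02 CPM in resistant CHL1 and 3.18, 2.97 and 2.67 CPM in parental CHL1, which overlapped. HERC5 differed between lines by -1.52 (SE 0.27, adjusted p = 0.00084). ISG15 differed by -0.67 (SE 0.22, adjusted p = 0.0378), which was lost in 9 of 18 alternatives (adjusted p up to 0.0998).

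HERC6 and HERC5 are adjacent on chromosome 4, and the genes nearest to them divided by line. In resistant A375, PPM1K (-0.99, SE 0.19) and HERC3 (-0.88, SE 0.11) were also lower, while PYURF, which lies between HERC5 and HERC3, was not called (0.07, SE 0.05). In CHL1 neither PPM1K (0.01, SE 0.12) nor HERC3 (-0.16, SE 0.07) was called. The median of the 20 nearest genes was 0.12 in A375 and 0.01 in CHL1.

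Among the antiviral GTPases and effectors, SAMD9 was the one gene lower in both lines. SAMD9, a restriction factor against poxviruses, had 29.5, 30.8 and 29 CPM in resistant A375, against 40.2, 42.9 and 43.8 CPM in parental A375 (-0.51, SE 0.06, adjusted p = 0.000516, edgeR). Resistant CHL1 libraries had 14.9, 13.6 and 13.7 CPM, against 23.7, 21.5 and 22.4 CPM in parental CHL1 (-0.68, SE 0.07, adjusted p = 6.61e-05). Its paralogue SAMD9L, which lies beside it on chromosome 7, had 8.12, 9.18 and 11 CPM in resistant A375 and 8.27, 7.41 and 11.8 CPM in parental A375, with overlap and no call (0.04, SE 0.19). In CHL1 SAMD9L had 8.51, 7.02 and 8.34 CPM in resistant cells and 8.73, 8.93 and 8.26 CPM in parental cells (-0.12, SE 0.10). The gene on the other side of SAMD9 is CDK6, a target of palbociclib, which was higher in resistant CHL1 (1.39, SE 0.10, adjusted p = 3.96e-06) and not called in A375 (-0.09, SE 0.07). SAMD9 thus fell in CHL1 between a gene that rose and a gene that was not called.

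MX1, a GTPase that blocks influenza virus, had 5.93, 7.71 and 6.88 CPM in resistant A375 and 5.01, 6.3 and 6.22 CPM in parental A375, which overlapped (0.23, SE 0.15, adjusted p = 0.293, edgeR). It had 1.5, 1.37 and 1.45 CPM in resistant CHL1 and 1.43, 1.37 and 1.08 CPM in parental CHL1 (0.15, SE 0.18). MX2, a factor against HIV, was lower in CHL1 by a small margin (-0.25, SE 0.08, adjusted p = 0.037). In that line the guanylate-binding protein GBP2 (-0.44, SE 0.13, adjusted p = 0.0333) and the mitochondrial nucleotide kinase CMPK2 (-0.28, SE 0.09, adjusted p = 0.0449) were also lower. These 3 calls were weak: without parental CHL1 replicate 1 the adjusted p was 0.104 for MX2, 0.133 for GBP2 and 0.187 for CMPK2, and DESeq2 also lost MX2 (0.07). None of the 3 was called in A375.

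ISG20, a 3′-5′ exonuclease, was higher in CHL1. It had 32.8, 34.3 and 30.3 CPM in resistant CHL1, against 21, 19.5 and 24.2 CPM in parental CHL1 (0.59, SE 0.08, adjusted p = 0.000375, edgeR). In A375 the groups overlapped, at 30.9, 24.7 and 29.4 CPM in resistant cells and 41.8, 30.7 and 26.7 CPM in parental cells (-0.22, SE 0.16), and the lines differed by -0.81 (SE 0.20, adjusted p = 0.00722). BST2, the tether that holds budding virus at the cell surface, had 70 counts over the resistant and 41 over the parental A375 libraries, and its change was not called (0.63, SE 0.32). The 20 genes nearest to BST2 on chromosome 19 had a median of -0.53 in A375. RSAD2, the enzyme viperin, had 27 counts over the resistant and 22 over the parental A375 libraries, and in CHL1 was not called (0.06, SE 0.18).

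PARP9, PARP12 and PARP14 belong to the ADP-ribosyltransferase family, and DTX3L is the ubiquitin ligase that pairs with PARP9. All 4 were lower in resistant CHL1, and 3 of the 4 in resistant A375. PARP12 had 15.4, 15.6 and 16 CPM in resistant A375, against 24.9, 20.7 and 27.4 CPM in parental A375 (-0.64, SE 0.11, adjusted p = 0.00221, edgeR). It had 25.3, 24.7 and 26.2 CPM in resistant CHL1, against 38.5, 35.1 and 37 CPM in parental CHL1 (-0.53, SE 0.06, adjusted p = 8.99e-05). The neighbours of PARP12 on chromosome 7 had medians of -0.02 in A375 and -0.08 in CHL1, close to zero in both lines.

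PARP14 had 27, 23.9 and 25.6 CPM in resistant A375, against 38.9, 31.5 and 39.5 CPM in parental A375 (-0.52, SE 0.10, adjusted p = 0.00389, edgeR). Resistant CHL1 had 12, 12.3 and 12.7 CPM, against 17.2, 16.4 and 18.3 CPM in parental CHL1 (-0.48, SE 0.07, adjusted p = 0.000801). The groups of both lines did not overlap, and the changes were of like size. DTX3L had 17.3, 17 and 17.3 CPM in resistant CHL1, against 27, 28.5 and 28.6 CPM in parental CHL1 (-0.70, SE 0.06, adjusted p = 1.86e-05). In A375 it had 32.5, 24.6 and 30.7 CPM in resistant cells and 44.4, 34.6 and 40.9 CPM in parental cells (-0.45, SE 0.12, adjusted p = 0.0214), a call that 4 of 6 libraries, when left out, ended (adjusted p up to 0.0672). PARP9 had 12.6, 13.9 and 13.3 CPM in resistant CHL1, against 23.2, 23.3 and 24 CPM in parental CHL1 (-0.82, SE 0.07, adjusted p = 1.16e-05). In A375 PARP9 overlapped between groups (-0.29, SE 0.15), and the difference between lines of 0.53 (SE 0.17, adjusted p = 0.0395) was lost in 9 of 18 alternatives.

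PARP9, DTX3L and PARP14 share a stretch of chromosome 3 whose other genes were also lower in CHL1. The 20 nearest genes had medians of -0.39 around PARP9 and DTX3L and -0.33 around PARP14, with 12 and 11 of the 20 called lower and none higher. Relative to these medians PARP9 was at -0.43, DTX3L at -0.31 and PARP14 at -0.15. KPNA1, an importin gene next to PARP9, was lower as well (-0.47, SE 0.04). The falls of PARP9, DTX3L and PARP14 in CHL1 therefore cannot be told apart from that of their stretch. In A375 the same stretch had a median of 0.03 around PARP14 and 0.08 around DTX3L.

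**Figure D3:**
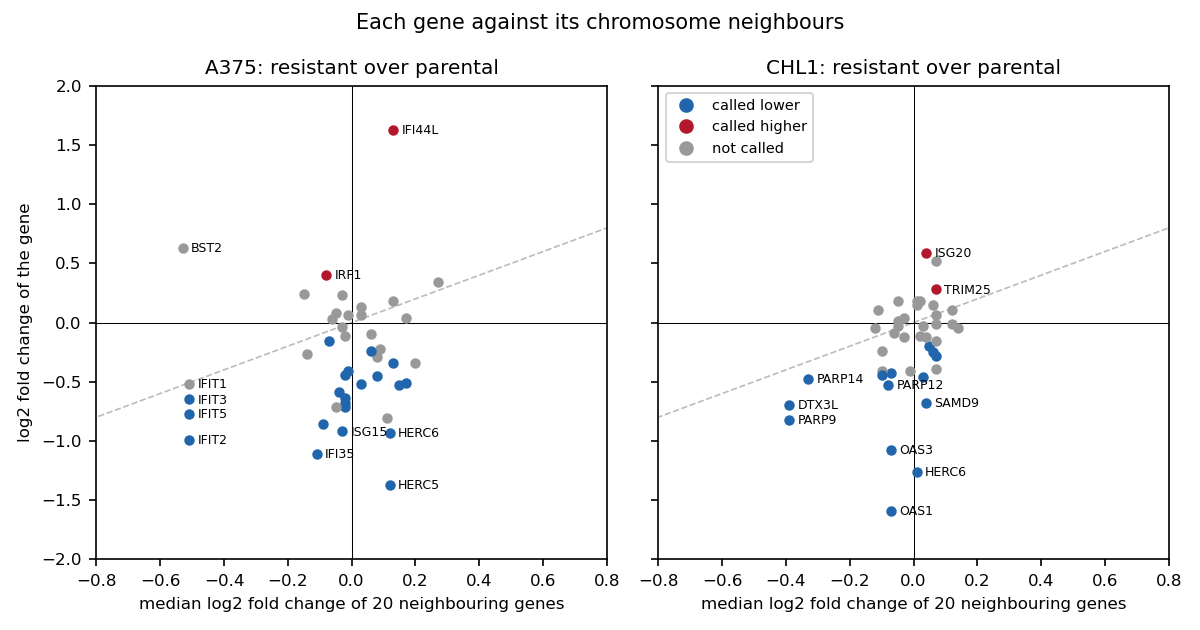
Log2 fold change (resistant over parental) of each tested interferon-stimulated gene against the median of its 20 nearest tested protein-coding genes that are not members, in A375 (left) and CHL1 (right); the dashed line marks equality, and colours mark genes called lower, called higher and not called. The IFIT genes of A375 (neighbour median -0.51) and PARP9, DTX3L and PARP14 of CHL1 (-0.39 and -0.33) stand left of the other called genes.

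With those 2 stretches set aside, 18 of the 21 lower members of A375 and 11 of the 14 of CHL1 had neighbours whose median was within 0.2 of zero on the log2 scale. Relative to the median of its neighbours, HERC5 was at -1.49 in A375 and OAS1 at -1.52 in CHL1. These stretches, and the members in them, are listed here as a description of position, and the number of gene copies was not measured.

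The remaining members encode interferon-induced proteins of other or unclear function. IFI44L and IFI44 lie next to each other on chromosome 1 and moved in opposite directions in A375. IFI44L had 2.36, 2.81 and 3.05 CPM in resistant A375, against 1.02, 0.667 and 0.952 CPM in parental A375 (1.63, SE 0.21, adjusted p = 0.000565, edgeR). IFI44 had 24.2, 27.4 and 26.3 CPM in resistant A375, against 32.3, 31.3 and 34.9 CPM in parental A375 (-0.34, SE 0.08, adjusted p = 0.0107). Neither pair of groups overlapped. IFI44L was too low to test in CHL1, with 16 counts over the resistant and 26 over the parental libraries. In the joint fit, where it passed the filter through A375 alone, its change differed between lines by 2.31 (SE 0.44, adjusted p = 0.00152), a value that rests on few CHL1 counts.

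IFI6, a mitochondrial and endoplasmic reticulum protein that limits flavivirus replication, was lower in A375 (-0.41, SE 0.10, adjusted p = 0.0149, edgeR), a call lost without resistant replicate 2 (0.0594), and differed between lines by -0.51 (SE 0.12). LGALS3BP, a secreted galectin-binding glycoprotein, averaged 434 ± 29.2 CPM in resistant and 514 ± 30.3 CPM in parental A375 (SD, n = 3 each). Its change of -0.24 (SE 0.06, adjusted p = 0.0201) was lost when any of 4 libraries was left out (adjusted p up to 0.0922), and the lines differed by -0.42 (SE 0.11, adjusted p = 0.0119). XAF1, which promotes cell death, had 35 counts over the resistant and 56 over the parental A375 libraries, and was not called (-0.81, SE 0.28, adjusted p = 0.0647). SP110, a nuclear body protein, and IFI27 were not called where tested. In CHL1, 5 genes of this role were tested and 0 were called by edgeR or by DESeq2, with 1, LGALS3BP, at an unadjusted p below 0.05.

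The test of the difference between lines called 18 of the 46 members, and 17 without IFI44L, which was too low to test in CHL1 alone. The change in A375 was the lower one in 12 (26.1%), against 11.9% of 19241 genes tested, and the higher one in 6 (13%), against 11.7%. The 6 were IRF1, IFIH1, OAS1, OAS3, PARP9 and IFI44L. The 12 were NMI, IFI35, DHX58, TRIM25, IFIT2, IFIT3, IFIT5, ISG15, HERC5, ISG20, IFI6 and LGALS3BP. The difference was not called for 5 of the 8 members lower in both lines, namely HERC6, SAMD9, PARP12, PARP14 and DTX3L, which does not show that they changed alike.

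No gene of the 21 interferon ligands reached the filter of the test in either line: 9 were listed in either table, and their summed level was at most 0.542 CPM in resistant and 0.593 CPM in parental A375, and at most 0.122 CPM in resistant and 0.0798 CPM in parental CHL1. IFNB1, IFNG, IFNL2 and IFNL3 were listed in neither table. Of 9 receptor and JAK kinase genes, all tested, 3 were lower and none higher in A375, while 1 was lower and 1 higher in CHL1. Over all genes tested the shares were 14.8% lower and 13.4% higher in A375, and 11.5% lower and 9.5% higher in CHL1. TYK2, the kinase of IFNAR1, had 72.8, 74 and 79.1 CPM in resistant A375, against 106, 106 and 115 CPM in parental A375 (-0.53, SE 0.06, adjusted p = 0.000314, edgeR), and IFNAR1 itself had -0.22 (SE 0.07, adjusted p = 0.037). IL10RB, a chain of the interferon lambda receptor, was lower too (-0.42, SE 0.13, adjusted p = 0.0386). In CHL1 JAK1 was lower (-0.25, SE 0.05, adjusted p = 0.00364) and IFNGR1 higher (0.19, SE 0.06, adjusted p = 0.0423).

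Of 12 genes of nucleic acid sensing, 9 were tested in each line, of which 3 were lower and 1 higher in A375, and 1 was lower in CHL1. Over all genes tested, 14.8% were lower and 13.4% higher in A375, and 11.5% lower and 9.5% higher in CHL1. With so few genes in the list, its difference from these shares was not tested. TLR3, the endosomal sensor of double-stranded RNA, was lower in both, at -0.91 (SE 0.12, adjusted p = 0.000822) in A375 and -0.63 (SE 0.14, adjusted p = 0.00821) in CHL1. In A375 its adaptor TICAM1 (-0.49, SE 0.11) and the nucleotide hydrolase SAMHD1 (-0.32, SE 0.07) were also lower, and the transcription factor IRF3 was higher (0.26, SE 0.06). TICAM1, IRF3 and TYK2 lie on chromosome 19, as does BST2, whose neighbours had a median of -0.53 in A375. Neighbours were taken for the 46 members only, so the part of position in these changes was not tested. RIGI, the sensor RIG-I, was not called in either line. Of the 7 negative regulators tested in each line, 0 were called by edgeR or by DESeq2, and 1 in each line had an unadjusted p below 0.05.

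A further list held 26 interferon-induced genes outside the 46, and its difference from the 46 was not tested. In A375, 23 were tested, of which 5 were lower and 3 higher, beside 14.8% lower and 13.4% higher over all genes, with a median of -0.13. In CHL1, 22 were tested, of which 7 were lower and 4 higher, beside 11.5% lower and 9.5% higher over all genes, with a median of -0.07. BATF2, a transcription factor, was lower in A375 (-1.22, SE 0.17), and TDRD7, a factor against paramyxoviruses, was lower in both lines (-0.81, SE 0.12 in A375 and -0.60, SE 0.06 in CHL1). SHFL, which blocks programmed frameshifting and also lies on chromosome 19, was lower in both (-0.62, SE 0.11 in A375 and -0.35, SE 0.09 in CHL1). APOL6 was lower in both as well (-0.46, SE 0.15 in A375 and -1.16, SE 0.18 in CHL1). IFI16, a DNA sensor, was higher in both (0.63, SE 0.08 in A375 and 0.32, SE 0.05 in CHL1), and IFITM2, which blocks virus entry, was higher in CHL1 (1.05, SE 0.27). The 3 higher genes of A375 and the 4 of CHL1 are not all named here, nor are all the lower ones.

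Markers of other cell types were measured beside these results. Summed leukocyte markers were 55.8 to 73.4 CPM in resistant and 56.9 to 81 CPM in parental A375, and 12.1 to 13.3 CPM in resistant and 13.7 to 13.8 CPM in parental CHL1. Their defining marker PTPRC was at 0.0956 to 0.236 CPM in resistant and 0.22 to 0.266 CPM in parental A375, and at 8.88 to 9.84 CPM in resistant and 9.19 to 10 CPM in parental CHL1. Summed fibroblast markers were higher in resistant A375, at 48.6 to 57.5 CPM against 21.4 to 25.6 CPM in parental A375, with 5 of 8 tested markers higher and 1 lower. In CHL1 that sum was 11.5 to 14.1 CPM in resistant and 17 to 23.1 CPM in parental cells. Of the leukocyte markers, 2 of 3 tested in A375 were lower (LYZ and CSF1R) and none higher. The same held for 2 of 3 tested keratinocyte markers (KRT5 and KRT14). Over all genes tested in A375, 14.8% were lower and 13.4% higher. Summed keratinocyte markers were 64.8 to 70.2 CPM in resistant and 76.8 to 93.9 CPM in parental A375, and 11.5 to 14.1 CPM in resistant and 12.4 to 13.4 CPM in parental CHL1. The T cell marker CD3E was at 0 in resistant A375 and not listed for CHL1, the fibroblast marker PDGFRA was not listed for CHL1, and the keratinocyte marker KRT1 was listed in neither table. Endothelial markers summed to at most 15 CPM in any library. The part of these marker genes in the results was not tested.

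Levels of the set were also compared between the 2 lines, in which most genes tested were called one way or the other. In resistant cells, 21 of 46 members were higher in A375 than in CHL1 (45.7%), against 38% of all 19241 genes tested, and 13 were lower (28.3%), against 38.6%. In parental cells, 27 were higher in A375 (58.7%), against 38.2%, and 15 were lower (32.6%), against 37.4%. The median log2 fold change of A375 over CHL1 was 0.23 in resistant and 0.62 in parental cells. By mean level, 22 members were highest in parental A375, 13 in parental CHL1, 7 in resistant A375 and 4 in resistant CHL1. The same count was not made over all genes, so whether the members differ from other genes in it was not tested. It includes 6 members, named next, that were too low to test in a line alone. OAS2, IFI44L, BST2 and XAF1 passed the filter of the joint fit through A375, and RSAD2 and IFI27 through CHL1, so those 6 could hardly be called the other way. Line and table cannot be told apart here, since each line has its own table.

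OAS2 showed the widest gap between the lines. It had 399 counts in resistant A375 against 4 in resistant CHL1, a ratio by depth of 97 (95% counting interval 37.6 to 358). In parental cells the counts were 594 in A375 and 9 in CHL1, a ratio of 70.6 (36.9 to 155). MX2 averaged 69.1 ± 1.77 CPM in resistant A375 and 13.3 ± 0.571 CPM in resistant CHL1 (SD, n = 3 each), and 71.2 ± 1.58 CPM in parental A375 and 15.9 ± 0.904 CPM in parental CHL1. UBE2L6 and HERC6 were also higher in A375 in both states, at 2.17 (SE 0.11) and 2.61 (SE 0.16) on the log2 scale in resistant cells and 1.98 (SE 0.11) and 2.27 (SE 0.13) in parental cells.

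All 4 IFIT genes were higher in A375 than in CHL1, in resistant cells by 0.74 (IFIT2, SE 0.21) to 2.45 (IFIT1, SE 0.32) and in parental cells by as much as 2.57 (IFIT1, SE 0.29) on the log2 scale. Some members had the reverse order. IFI35 was lower in A375, at -2.71 (SE 0.09) in resistant cells, and averaged 11.5 ± 1.46 CPM in resistant A375 and 75.6 ± 4.82 CPM in resistant CHL1 (SD, n = 3 each), and 25 ± 1.47 CPM in parental A375 and 87.2 ± 3.8 CPM in parental CHL1. CMPK2 was lower in A375 as well, at -2.25 (SE 0.12) in resistant and -2.61 (SE 0.12) in parental cells. ISG15, OASL, RSAD2, IFI6, DHX58 and STAT2 were likewise lower in A375 in both states. HERC5 changed order: in resistant cells A375 was below CHL1 (-0.59, SE 0.20, adjusted p = 0.0132, edgeR), a call lost without resistant A375 replicate 1 (0.0667) or resistant CHL1 replicate 3 (0.111), and in parental cells A375 was above CHL1 (0.93, SE 0.18, adjusted p = 0.000291).

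**Figure D4:**
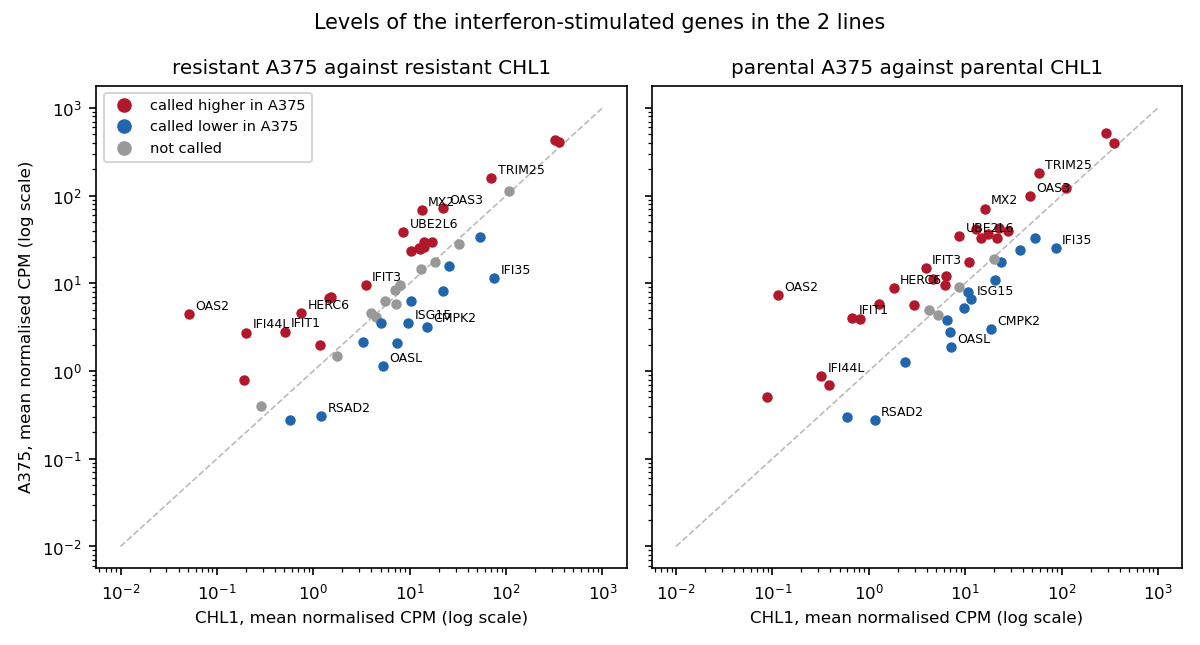
Mean normalised CPM of the 46 interferon-stimulated genes in A375 (vertical, log scale) against CHL1 (horizontal, log scale), in resistant cells (left) and parental cells (right); each point is the mean of 3 libraries, the dashed line marks equality, and red, blue and grey mark genes called higher in A375, called lower in A375 and not called. OAS2 lies farthest above the line in both panels, and IFI35 and CMPK2 lie below it.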

How the data were processed

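RNA was sequenced from 12 libraries in 4 groups of 3, from unstranded libraries, so a read from an overlapping or antisense gene, or from a near-identical copy, can be counted for another gene. The deposited values are raw read counts per Ensembl gene in 2 tables, 1 for each line, and all 12 columns were used. Per the submitters' processing notes, TopHat2, HTSeq 0.5, cutadapt 1.7, CASAVA 1.8.2 and limma were used. For the counts, genome build and annotation are not given in the sources used.

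Members were matched by Ensembl identifier through a table of gene names. The members, their roles and the other lists were chosen with earlier results of these data known. Each line was fitted alone in R 4.3.3 with edgeR 4.0.16 (TMM factors, filterByExpr with a minimum count of 10, quasi-likelihood F-test, two-sided). Lines were compared by the interaction contrast of 1 fit with all 12 libraries and the 29735 genes found in both tables, of which 19241 passed the filter, and line was compared with line in the same fit. A standard error was taken from the fold change and its F statistic. Neighbours were the 10 nearest tested protein-coding genes on each side in the order of GENCODE release 29, members left out. Every member could be named. Values in every library were given for the 8 members of smallest adjusted p in each direction of resistant against parental cells. A fixed group of 14 was named whatever its result, most of them with library values in at least 1 line, and a few called members were added. Comparisons between lines were given by fold change, count or mean for selected members. Of the other pathway genes, up to 4 per list, direction and line were named, with RIGI added after its values were seen, and 1 gene of these lists is not reported here. Alternatives were RLE size factors, DESeq2 1.42.0, no filter, a filter of 1 CPM in 3 libraries, genes listed in either table, a replicate block, and each library left out. The fit was tested on simulated data. Total counts per library limit the precision of the low members, and intervals cover counting error only, because the reads carry no molecular identifiers and are not independent.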

Additional observations from a re-analysis of the deposited data

Results flagged for a closer look

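The change with resistance differed between A375 and CHL1 for 18 members by the interaction contrast of edgeR's quasi-likelihood F-test, with Benjamini-Hochberg adjustment over 19241 genes. The values below are the log2 change in A375 minus that in CHL1, on the log2 scale, and their errors and adjusted p-values stand beside the genes above. Among the factors and sensors the difference was 0.49 for IRF1, -0.71 for NMI, -0.91 for IFI35, 0.80 for IFIH1, -1.04 for DHX58 and -0.44 for TRIM25. Among the effectors it was -1.51 for IFIT2, -0.49 for IFIT3, -0.76 for IFIT5, 0.92 for OAS1, 0.64 for OAS3 and -0.81 for ISG20. In the remaining roles it was -0.67 for ISG15, -1.52 for HERC5, 0.53 for PARP9, -0.51 for IFI6, 2.31 for IFI44L and -0.42 for LGALS3BP. IFI44L passed the filter of the joint fit through A375 alone and rests on 16 counts over the resistant and 26 over the parental CHL1 libraries. For IFIT2, IFIT3 and IFIT5 the neighbouring genes in A375 had a median of -0.51, and for PARP9 those in CHL1 had a median of -0.39. The cause of these differences was not tested.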

How the results depend on the processing

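Every count of members was recomputed under each alternative. With any 1 library left out, the members higher in resistant than parental A375 numbered 1 to 3 and those lower in CHL1 8 to 14, while the other counts stayed within 1.5 times their reported value. The main fit did not pair the samples by replicate number. Deviations of same-numbered libraries from their group means correlated at 0.263, 0.274 and -0.00679 in A375 and 0.146, 0.00659 and 0.0327 in CHL1. Between libraries of different numbers the correlations ran from -0.311 to 0.0712 in A375 and from -0.0963 to 0.0701 in CHL1. Whether same-numbered libraries share a batch was not tested. Under a replicate block, 24 members were lower and 3 higher in A375, and 15 lower and 3 higher in CHL1; IFIT1, OASL, PARP9 and UBE2L6 in A375 and GBP1 and LGALS3BP in CHL1 were the added calls, and 20 members differed between lines. All members called without the block kept their call and direction under it.

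Over the values of every member tested in the 5 comparisons, 3248 kept direction and side of the threshold, 89 lost their call, 28 gained one and 51 changed sign, all of the last in values that were not called. With 1 library left out, in A375 STAT2 ran from -0.08 to 0.15, GBP1 from -0.13 to 0.23, GBP2 from -0.06 to 0.48, CMPK2 from -0.02 to 0.15 and SAMD9L from -0.09 to 0.27. In CHL1 EIF2AK2 ran from -0.10 to 0.01, ADAR from -0.00 to 0.03, TRIM21 from -0.11 to 0.02, IFIT5 from -0.10 to 0.05, UBE2L6 from -0.07 to 0.03, HERC5 from -0.03 to 0.32 and IFI27 from -0.22 to 0.18. The differences between lines ran from -0.09 to 0.11 for STAT2, -0.30 to 0.25 for IFIT1, -0.18 to 0.85 for OAS2, -0.02 to 0.22 for MX1, -0.18 to 0.29 for RSAD2, -0.11 to 0.04 for PARP14, -0.41 to 0.33 for IFI27 and -0.03 to 0.08 for SP110. A375 over CHL1 ran from -0.14 to 0.22 for SAMD9L in parental and from -0.04 to 0.28 for PARP9 in resistant cells. For STAT2 the difference between lines was 0.01 with RLE size factors, 0.01 with DESeq2 and 0.02 with the 1 CPM filter. The cause was not tested. Members under about 1 CPM are limited by depth.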
